A study of Homo sapiens with 12 samples.

Results

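The TET genes TET1, TET2 and TET3 encode dioxygenases, and the regions described here are the stretches of their RNA found with the Argonaute protein AGO2. The genes were taken as a family. Regions were then chosen by position, as those that overlapped the RefSeq span of a TET gene on hg38 by at least 1 base on the strand of the gene. This gave 32 of the 4111 regions in the data, 12 of 1190 in the WT list and 20 of 2921 in the 5xA list. TET3 held 10 WT and 17 5xA regions, TET1 held 2 and 3, and TET2 held 0 in each list. The number, position, spacing and sharing of these regions were in view when the genes were chosen, so they are given as descriptions, with no test.

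TET enzymes oxidise the methyl group of 5-methylcytosine in DNA, using iron and 2-oxoglutarate as cofactors. The oxidised bases are lost at replication or are cut out by the glycosylase TDG, and an unmethylated cytosine is restored. In epithelial cells the enzymes are known for keeping promoters and enhancers free of methylation, and their loss of activity is a common finding in tumours. AGO2 carries miRNAs, short RNAs that pair through their seed with sites in target mRNAs and recruit proteins that block translation and shorten the poly(A) tail. TET mRNAs have long 3' untranslated regions and are reported targets of several miRNAs.

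The study mapped RNA bound to AGO2 by eCLIP, in which ultraviolet light crosslinks RNA to protein before immunoprecipitation (IP), in HCT116, an established human colorectal carcinoma line. The 12 samples form 6 groups of 2, an input and an anti-FLAG IP for each of AGO2_KO, FH-AGO2_WT and FH-AGO2_5xA cells. AGO2_KO cells lack AGO2. FH-AGO2_WT cells carry tagged wild-type AGO2, and FH-AGO2_5xA cells carry a tagged mutant whose clustered phosphorylation sites are alanines. No drug treatment separates the groups. The sources used here do not say how the tagged protein is expressed, whether each line is 1 clone or whether the tagged cells also lack their own AGO2. Each list was merged by the authors from the 2 IP samples of a genotype, so there is 1 list per genotype. No value below has a replicate error, and no difference between the lists could be set against the spread between cultures. With no read counts, sequencing depth is unknown for every region. The 5xA list is the longer of the lists throughout, with 2921 against 1190 regions and 405 kb against 172 kb of summed width, and every gene-level count below stands beside that difference.

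TET3 held more regions than any other protein-coding gene over both lists together. Of 20056 protein-coding genes, 672 (3.35%) held a region in the WT list and 1492 (7.44%) in the 5xA list, and 68.9% and 63.6% of these held a single one. Genes with at least 10 regions numbered 2 in the WT list (0.00997%), TET3 and ANKRD52, and 13 in the 5xA list (0.0648%). TET3 stood in both of these small sets, with 17 5xA regions against 12 in ANKRD52. TET1, with 2 WT and 3 5xA regions, was among the 600 genes (2.99%) found in both lists. TET2 was found in neither list.

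**Figure D1:**
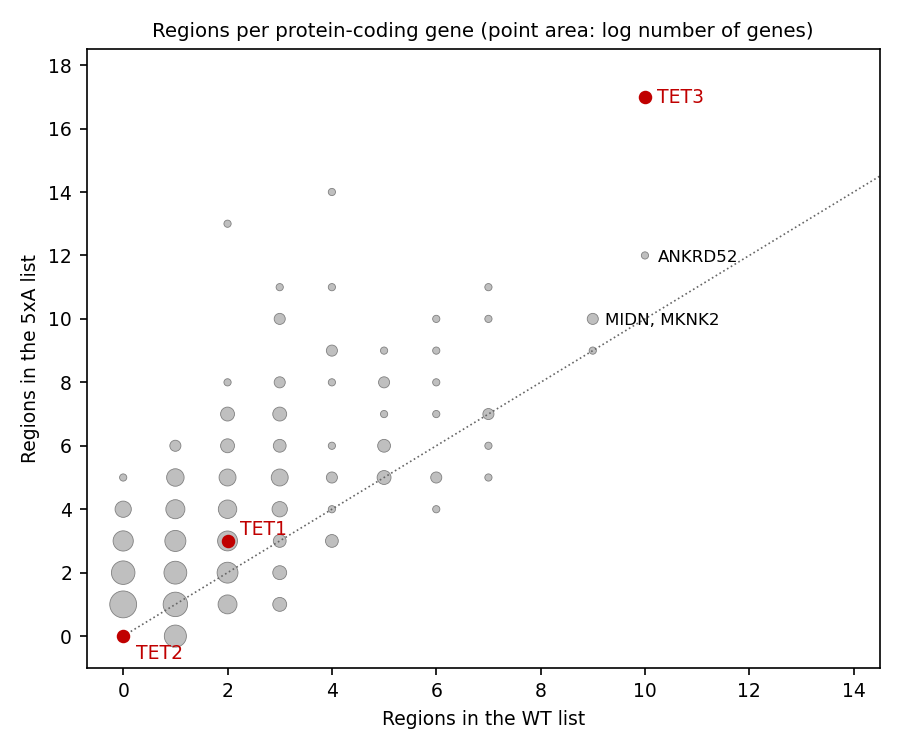
Number of WT regions (x axis) against number of 5xA regions (y axis) for protein-coding genes with at least 1 region, where the area of a grey point follows the log of the number of genes at that place and the dotted line marks equal numbers. TET3 lies at 10 and 17, beyond ANKRD52 at 10 and 12, while TET1 lies at 2 and 3 and TET2 at 0 and 0 (red points).

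TET3 lies on the plus strand of chromosome 2, from 73983631 to 74135498. No TET region overlapped another gene of the RefSeq table on either strand, and no region lay on the minus strand inside a TET span. The TET3 regions therefore had no overlapping annotated neighbour to be shared out to. Over both lists they fell into 5 groups, separated by more than 1000 bases, a limit set after the positions were seen.

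The first group, from 73984931 to 73985117, held 2 5xA regions and no WT region. Its regions began 21 and 129 bases after a start site listed for TET3 at 73984910, and 10 bases lay between them. They were the only TET regions within 500 bases downstream of a listed start, where TET1 has 3 listed starts and TET2 and TET3 have 2 each. Such places were uncommon in both lists, with 27 of 1190 WT regions (2.27%) and 99 of 2921 5xA regions (3.39%) starting within that distance.

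The first 29 bases of the first region, chr2:73984931-73984959 on the plus strand, are held in the RefSeq promoter table (GRCh38.p14) and are shown because they are the only TET region sequence that could be read. They are written as DNA, 5' to 3', with matches to a miRNA seed in capitals.
TET3 start: TGCTGCTGCTGCTgccgccgcggccgccg

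The stretch was made of repeated triplets and was 82.8% G and C, against a median of 62.1% (quartiles 48.3 and 72.4) at the same place in 34943 promoter windows. Of these windows 7.69% were as rich in G and C or richer. The sources used here do not say how the authors placed reads from such repeats. The other 69 bases of this region, of 98, and the other 31 TET regions were not read.

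Seeds of 43 miRNAs, in 31 seed families, were searched for in these 29 bases. The 2 that matched, miR-15a-5p and miR-16-5p, share their seed, shown in capitals as bases 2 to 8 of the mature RNA.
miR-15a-5p: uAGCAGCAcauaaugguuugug
miR-16-5p: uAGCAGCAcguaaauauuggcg

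The matching DNA letters, TGCTGCT, occurred at positions 1, 4 and 7 counted from the first base shown, and these matches overlap each other. The reverse complement, AGCAGCA, did not occur. Among all promoter windows, 238 of 34943 (0.681%) held TGCTGCT in the same 29 bases, and 1418 (4.06%) held it anywhere in 300 bases. AGCAGCA occurred in those 29 bases in 0.601% of windows. The match is a description of these letters and not a binding site. Of the 3 genes that encode these miRNAs, MIR16-1 held a region in both lists, and MIR15A and MIR16-2 held none on the mature sequence.

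Families reported to repress TET mRNAs were also looked up among the regions, and their sequences are shown because these are the seeds a reader would look for in the TET3 regions. They fall into 3 seed families.
miR-22-3p: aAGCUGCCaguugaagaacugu
miR-29a-3p: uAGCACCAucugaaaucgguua
miR-29b-3p: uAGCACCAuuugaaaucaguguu
miR-29c-3p: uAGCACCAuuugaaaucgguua
miR-26a-5p: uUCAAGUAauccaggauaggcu
miR-26b-5p: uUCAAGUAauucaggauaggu

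The genes of these families, MIR22, MIR29A, MIR29B1, MIR29B2, MIR29C, MIR26A1, MIR26A2 and MIR26B, held no region in either list on their mature sequence. Over the 56 genes of all 43 miRNAs, 11 held a WT and 15 a 5xA region there. A gene without a region is one where none was called, and the level of the miRNA was not measured.

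The second TET3 group was a single shared place near the upstream end. The WT region ran from 73986461 to 73986557 and the 5xA region from 73986414 to 73986557. Both ended on the same base, and the 5xA region began 47 bases earlier. The third group was again 1 region in each list, 61277 bases further on, from 74047885 to 74047983 with WT and from 74047835 to 74047971 with 5xA. These regions overlapped by 87 bases. Its place at 42.3% of the gene span set it apart from both ends of the gene.

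Most TET3 regions lay in one stretch of 5.96 kb, from 74102073 to 74108033, which is 3.93% of the gene span. It held 8 of the 10 WT regions and 13 of the 17 5xA regions. WT regions covered 835 bases of it (14.0%) and 5xA regions covered 1533 bases (25.7%). Within the stretch the regions formed the fourth and last groups, with 2076 bases between them that held no region in either list.

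In the fourth group, from 74102073 to 74103844, 4 WT and 5 5xA regions lay in 1.77 kb. The WT regions began at 74102162, 74102329, 74102605 and 74103192, and 3 of them met a 5xA region. The one from 74102329 to 74102424, 96 bases wide, was the only TET region of the WT list with no 5xA partner, and 71 bases separated it from the nearest 5xA region. The 5xA regions began at 74102073, 74102606, 74103177, 74103566 and 74103763. The last 2 of these, 90 and 82 bases wide, had no WT partner and lay 279 and 476 bases from the nearest WT region. The group thus had places found in 1 list only on both sides.

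The last group, from 74105921 to 74108033, is where the lists differed most in number, with 4 WT and 8 5xA regions in 2.11 kb. All 4 WT regions, starting at 74105978, 74106425, 74107699 and 74107954, met a 5xA region. The other 4 5xA regions lay between these places, from 74106102 to 74106251, 74106751 to 74106825, 74106955 to 74107039 and 74107106 to 74107234. Of these the first lay 38 bases from a WT region and the others 176, 380 and 464 bases from one. The 3 last-named regions, 75, 85 and 129 bases wide, lay in the longest gap between WT regions in this group, 1124 bases. Covered bases were 412 (19.5%) with WT and 938 (44.4%) with 5xA.

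**Figure D2:**
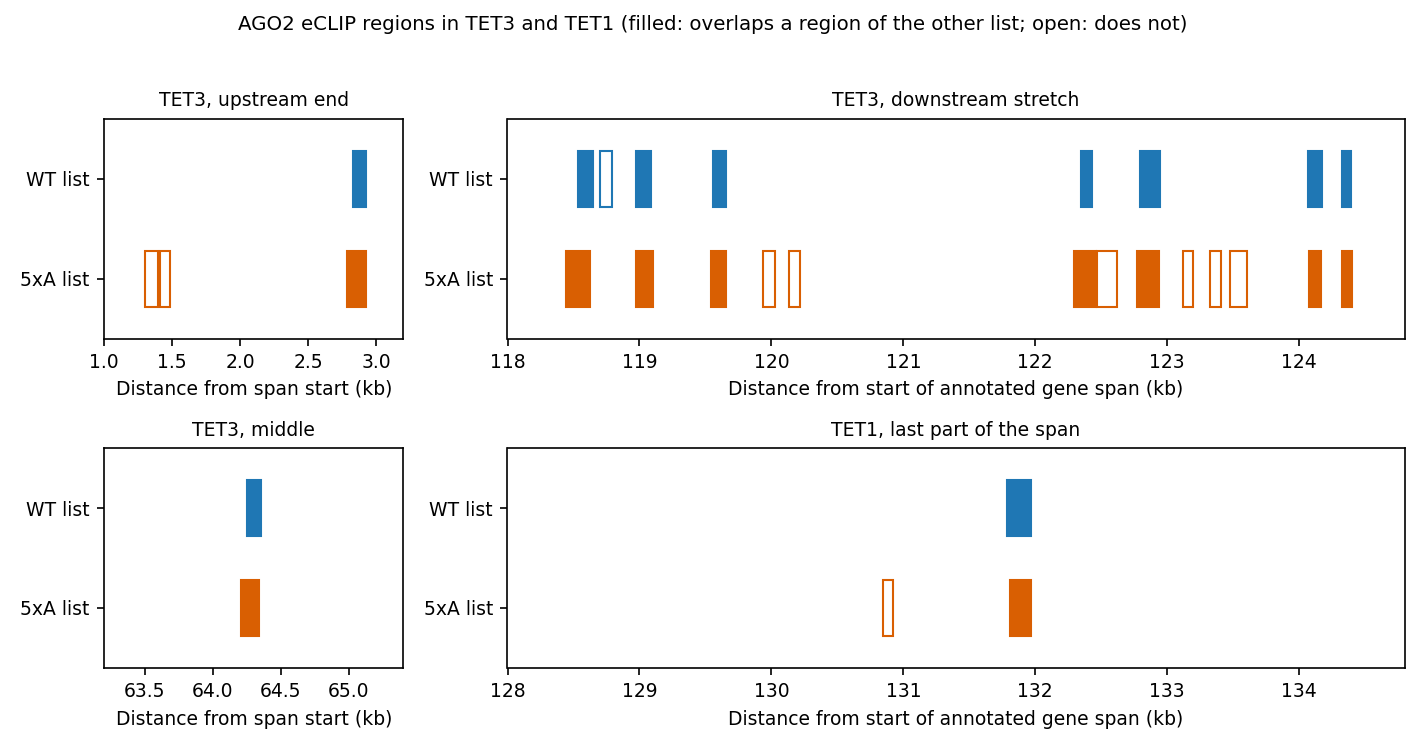
Regions of the WT list (blue) and the 5xA list (orange) in TET3 and in the last part of TET1, drawn to scale along the distance in kb from the start of the annotated gene span, with filled boxes for regions that overlap one of the other list and open boxes for those that do not. Of the TET3 regions 9 in each list are filled, 1 WT box and 8 5xA boxes are open, and the shared TET1 place 13.1 kb from its start is not drawn.

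Over the whole gene, 9 of 10 TET3 WT regions overlapped a 5xA region (90.0%, exact Clopper-Pearson 95% interval 55.5 to 99.7), and 9 of 17 5xA regions overlapped a WT region (52.9%, 27.8 to 77.0). In the lists without the TET genes the shares were 81.2% (956 of 1178) and 32.2% (933 of 2901). The intervals cover counting error only and treat regions as independent, although those of TET3 lie in 1 gene. Sharing was in view when the genes were chosen, so the intervals do not hold at their stated level. The other regions also include those of protein-coding genes bound in 1 list only, 892 with 5xA and 72 with WT. The shares beside TET3 are therefore not of like genes. Each shared TET3 region met exactly 1 partner, giving 9 pairs. In bases, WT covered 1031 and 5xA 1991, a ratio of 1.93, and 874 bases were in both. That is 84.8% of the WT bases and 43.9% of the 5xA bases.

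The overlap of paired TET3 regions took in 80.0% or more of each WT region and 50.9% or more of each 5xA region. The overlap ran from 72 to 145 bases, with a median of 95, and all 9 pairs overlapped by at least 50% of both regions. The 5xA region was the wider in 8 of 9 pairs, by a median difference of 16 bases over all 9. The largest difference was 83 bases, at the WT region from 74105978 to 74106063 (86 bases) inside the 5xA region from 74105921 to 74106089 (169 bases). The exception was the pair at 74107699 to 74107801, where the WT region had 103 bases and the 5xA region 85. Among all 847 one-to-one pairs of the lists, the 5xA region was the wider in 566 (66.8%), with a median difference of 14 bases. Both TET1 pairs ran the other way.

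TET3 regions had medians below that of the whole list with WT and slightly above it with 5xA. WT regions had a median of 98 bases and ran from 73 to 150, beside a median of 114 (quartiles 87 and 161) in the whole WT list. In the 5xA list TET3 regions had a median of 110 bases (quartiles 85 and 144) and ran from 75 to 185, beside a median of 104 (quartiles 78 and 153) in the whole list. No TET3 region of either list was wider than 185 bases. The 9 shared 5xA regions had a median of 137 bases and the 8 without a partner a median of 87.5, and in the whole list the medians were 145 and 93.

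**Figure D3:**
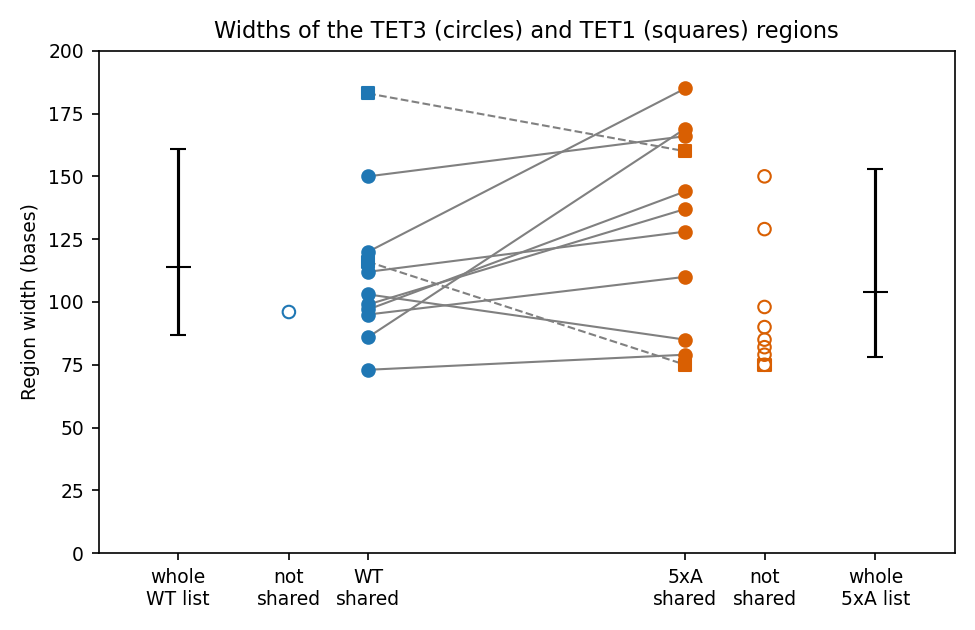
Width in bases of the TET3 (circles) and TET1 (squares) regions, with lines joining the WT and 5xA regions that overlap, open symbols for regions with no partner, and black bars for the median and quartiles of each whole list. The line rises from WT to 5xA in 8 of 9 TET3 pairs and falls in both TET1 pairs.

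Neighbouring TET3 regions were spaced by 47 to 61327 bases in the WT list, with a median gap of 475, and by 10 to 61277 bases in the 5xA list, with a median of 230. Over all protein-coding genes with a known strand the medians were 226.5 and 217. Counting only gaps of up to 1000 bases, the medians were 180 over 5 gaps and 157 over 12. The same medians over all these genes were 154.5 over 266 gaps and 136 over 757. Gaps of 50 bases or less were 1 of 9 with WT and 2 of 16 with 5xA in TET3, and 71 of 322 and 222 of 962 over all these genes. With regions joined across such gaps, TET3 held 9 WT and 15 5xA regions, and its median gap was 799.5 bases with WT and 313.5 with 5xA.

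None of the TET3 regions lay within 5 kb of the downstream end of the gene as the RefSeq table gives it. The nearest was 27472 bases from it with WT and 27465 with 5xA. In genes longer than 10 kb with a known strand, 82.5% of 696 WT and 80.0% of 1763 5xA placements of a region in a gene lay within that distance. The stretch with most regions ran from 78.0% to 81.9% of the TET3 span. That span joins 16 transcripts, 2 curated and 14 predicted, and the table does not give their separate ends. Distances to the end of any single TET3 transcript, and whether the regions lie in its 3' untranslated region, coding exons or introns, were not measured.

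TET1 lies on the plus strand of chromosome 10, from 68560337 to 68694487. Its first region ran from 68573438 to 68573553 with WT (116 bases) and from 68573484 to 68573558 with 5xA (75 bases), 13.1 kb from the start of the gene. Near the downstream end, a WT region from 68692123 to 68692305 (183 bases) contained a 5xA region from 68692145 to 68692304 (160 bases). Both TET1 WT regions were shared, and these later regions lay 2182 and 2183 bases from the end of the gene. The remaining 5xA region, from 68691183 to 68691257, was 75 bases wide and lay 865 bases from the nearest WT region. Unlike TET3, TET1 therefore had regions within 5 kb of its annotated end, 1 with WT and 2 with 5xA. The TET1 span joins 19 transcripts and the TET3 span 16, of which 14 are predicted. Distances to the ends of single transcripts were not measured, so the contrast holds for the annotated spans only.

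TET2 lies on the plus strand of chromosome 4, from 105145875 to 105279803, a span of 134 kb like that of TET1. It held no region on either strand, and 92.2% of protein-coding genes held none in either list. Whether TET2 RNA was present in the inputs was not analysed here, so the absence of a region says nothing on its level.

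Beside TET3, the 3 genes with most regions were ANKRD52, a subunit gene of the PP6 phosphatase that acts on AGO2, MIDN, the gene of midnolin, and MKNK2, a kinase gene of the eIF4E pathway. Their spans are 20.6, 10.6 and 13.8 kb, and that of TET3 is 152 kb. ANKRD52 held 10 WT and 12 5xA regions, and 9 and 8 of them were shared. MIDN held 9 and 10, all but 1 of the 5xA regions shared, and MKNK2 held 9 and 10, with 9 and 6 shared. With WT these genes had 0 or 1 unshared regions, as TET3 had. With 5xA they had 4 of 12, 1 of 10 and 4 of 10, and TET3 had 8 of 17 (47.1%). In the whole 5xA list 1977 of 2921 regions (67.7%) were unshared, a larger share than in any of these 4 genes. The 4 genes hold the most regions over both lists, while the whole list includes regions of 892 protein-coding genes with no WT region. These shares are therefore not of like sets.

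The 4 genes differed more in how much the regions covered. TET3 had the most regions but the fewest covered bases, 1031 with WT and 1991 with 5xA. ANKRD52 had 1298 and 2165, MKNK2 had 1395 and 2615, and MIDN had 2466 and 3338. Over all gaps, the median was also longest in TET3, at 475 and 230 bases, against 234 and 112 in ANKRD52, 55.5 and 47 in MIDN and 44 and 32 in MKNK2. Median widths were 98 and 110 bases in TET3, 107.5 and 165 in ANKRD52, 242 and 234 in MIDN and 136 and 235 in MKNK2. By these medians the TET3 regions were narrower and further apart than those of the 3 other genes in both lists. In the WT list 9 of 10 ANKRD52 regions, 8 of 9 MIDN regions and 9 of 9 MKNK2 regions lay within 5 kb of the annotated gene end, against 0 in TET3. The WT region nearest to that end was 668, 72 and 12 bases from it in these genes and 27472 bases in TET3. The annotated TET3 end is that of a span joining 16 transcripts, 14 of them predicted. Distances to the end of any single TET3 transcript were not measured, so these values do not place its regions away from a transcript end.

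**Figure D4:**
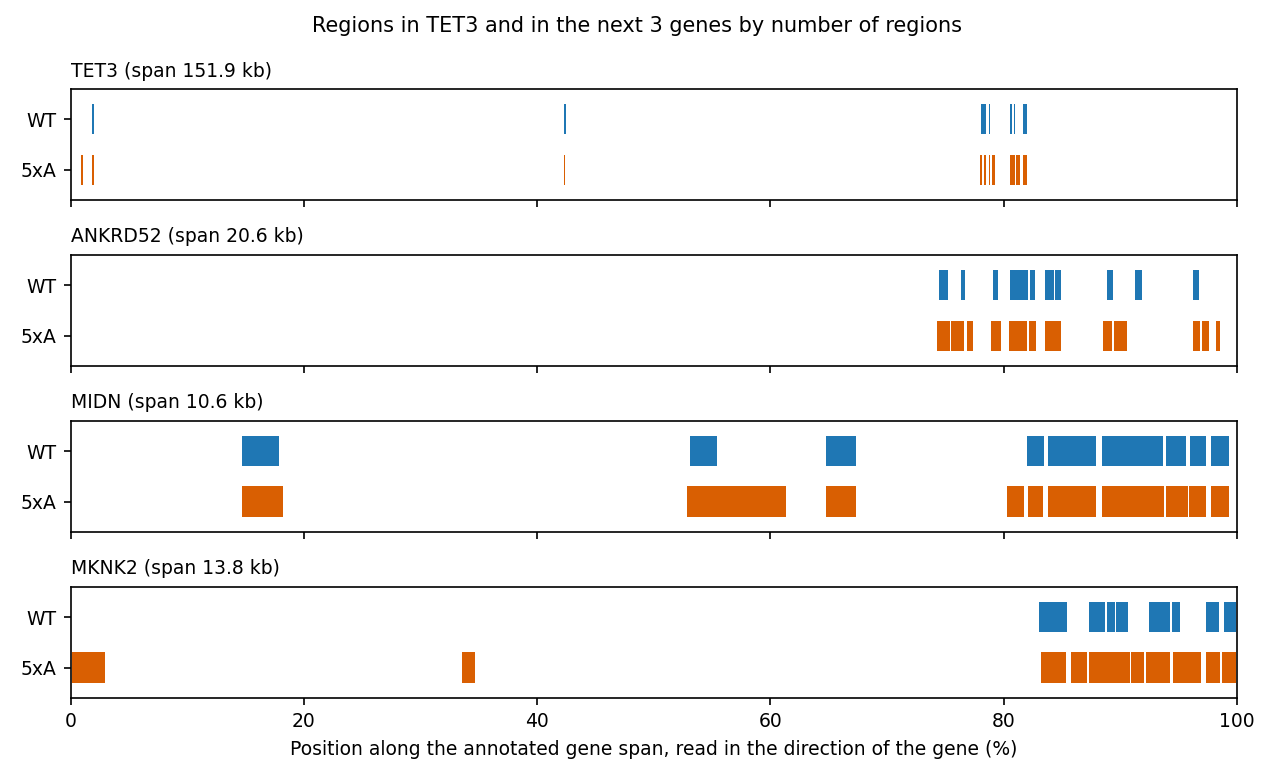
Position of WT (blue) and 5xA (orange) regions along TET3 and the 3 other genes with most regions, in percent of each annotated gene span read in the direction of the gene; boxes under 0.15% of the span are drawn at that width. In TET3 most regions lie between 78.0% and 81.9% of the span, while the WT regions of the other genes reach to within 668, 72 and 12 bases of the downstream end. The TET3 span joins 16 transcripts, 14 of them predicted, whose separate ends are not known here.

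Of 90 other genes of the methylation cycle and of related dioxygenases, in 7 lists, 17 held a region. A WT region was held by 8 (8.89%) and a 5xA region by 16 (17.8%), beside 3.35% and 7.44% of all protein-coding genes. A region in each list was held by 7 of them, 9 were bound with 5xA alone and 1 with WT alone, beside 2.99%, 4.45% (892) and 0.359% (72) of all 20056 protein-coding genes. Which genes HCT116 cells express was not measured, for the 90 genes or for the larger set. What lies behind the difference in these shares was not tested. Strand was not known for 14 of the 90 genes, and regions on either strand were counted there.

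Among 6 genes that write DNA methylation or guide its upkeep, the de novo methyltransferase gene DNMT3B held 0 WT and 3 5xA regions, covering 259 bases. UHRF1, whose product brings the maintenance enzyme DNMT1 to replicated DNA, held 1 WT region of 102 bases and 0 5xA regions. Neither gene thus held a region in each list, as TET3 and TET1 did. DNMT1 and DNMT3A held none. The share of these 6 genes was 16.7% in each list, beside 3.35% with WT and 7.44% with 5xA of all protein-coding genes. Of 13 genes that act on the oxidised base or in base excision repair, PARP1, which signals strand breaks, held 1 5xA region and TDG held none. That is 7.69% of the 13 genes with 5xA, close to the 7.44% of all protein-coding genes.

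Of 9 genes grouped here as methylated DNA readers and related proteins, 4 held a region in the 5xA list and 1 in the WT list. Of all protein-coding genes 7.44% and 3.35% held one. MBD1 held 1 region in each list, and they overlapped. MBD6 held 2 5xA regions, and MBD3, of the NuRD complex, and the zinc finger gene ZBTB4 held 1 each. Genes with a CXXC domain, which binds unmethylated CpG and is also present in TET1 and TET3, numbered 3 of 8 in the WT and 4 of 8 in the 5xA list, beside the same 3.35% and 7.44%. FBXL19 held 2 and 4 regions, the H3K36 demethylase gene KDM2A held 2 and 3, and all of their WT regions were shared. The H3K4 methyltransferase gene KMT2B held 1 in each list and KMT2A 1 with 5xA, at a place that TTC36-AS1 also spans.

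OGT, which encodes the GlcNAc transferase that TET proteins bind, was the 1 gene of 8 TET partner genes with a region. It held 1 region in each list, of 77 and 95 bases, and they overlapped. Of all protein-coding genes 3.35% held a WT and 7.44% a 5xA region. Genes of 2-oxoglutarate, succinate and fumarate metabolism, which set the cofactor supply of the enzymes, held 0 regions in 14 genes, close to those shares. Of 32 other dioxygenase genes that use 2-oxoglutarate, 2 were in the WT and 5 in the 5xA list, against 3.35% and 7.44% of all protein-coding genes. KDM6B, the H3K27 demethylase gene, held 7 WT and 10 5xA regions, and 1 of the 5xA regions also lay in the span of LOC124904106. HIF1AN, the gene of the HIF asparagine hydroxylase, held 2 in each list, of which 1 WT region was shared. KDM4A, PHF8 and the RNA demethylase gene ALKBH5 each held 1 with 5xA only, and the KDM4A region also lay in the span of KDM4A-AS1. TET3 and KDM6B were thus the dioxygenase genes with many regions.

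Marker genes were looked up in the same way. The colorectal epithelial list of 8 genes had regions in CLDN4 (2 WT and 1 5xA) and VIL1 (1 5xA, inside USP37 as well). COL1A1, with 2 WT and 4 5xA regions, was the 1 gene of 7 fibroblast markers with a region, and 0 of 6 blood cell markers held one. Of all protein-coding genes 3.35% held a WT and 7.44% a 5xA region. Strand was not known for 4 of the colorectal, 6 of the fibroblast and 4 of the blood cell markers. COL1A1 and VIL1 were among them, and regions on either strand were counted there. A region list does not give expression levels, so these counts do not measure the makeup of the cells, and their part in the TET results was not tested.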

How the data were processed

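The files used were 2 region lists, 1 per genotype, each merged by the authors from 2 IP samples, per the labels. The deposited lists have 6 columns, and the deposited score is 0 in every row, so no score was used. The submitters' processing notes name cutadapt 1.9.1, TopHat2 and hg38. The sources used here do not give the peak caller, its threshold, the merging rule or the use made of inputs and knockout libraries. These 8 samples were not analysed here.

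Coordinates are 1-based. Gene spans came from a RefSeq table (GRCh38.p14, with hg38 chromosome coordinates), and strand from the RefSeq promoter table, which runs from 250 bases before to 50 after each start. Of 20056 protein-coding genes, 4214 had no single strand there, and their regions were counted on either strand. An overlap of 1 base or more on 1 strand made a region shared. Overlaps were counted in Python 3.11.15, and bedtools 2.31.1 gave the same numbers of shared regions. On simulated lists of 500 regions, 200 planted overlaps were found as 200. Exact 95% Clopper-Pearson intervals used scipy 1.17.1. No test was run. The plan to search seeds in all TET regions was limited to the 29 bases a table held.

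The members and gene lists were chosen with earlier results of these data known. The named genes were the TET genes, the 3 other genes with most regions over both lists, and listed genes with a region. Genes named for holding none, and the reported miRNA families, were chosen afterwards. The miRNAs searched, each by its main arm, were let-7a, miR-98, miR-15a, miR-16, miR-17, miR-20a, miR-93, miR-106b, miR-18a, miR-19a, miR-19b, miR-92a, miR-25, miR-21, miR-22, miR-23a, miR-24, miR-26a, miR-26b, miR-27a, miR-29a, miR-29b, miR-29c, miR-30a, miR-30c, miR-34a, miR-101, miR-125b, miR-141, miR-200b, miR-181a, miR-182, miR-96, miR-183, miR-7, miR-191, miR-203a, miR-221, miR-222, miR-31, miR-192, miR-194 and miR-378a.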

Additional observations from a re-analysis of the deposited data

How the results depend on the processing

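Of 46 values under alternatives, 35 stayed within 1.5 times the reported one and 11 did not. The TET3 counts of 10 and 17 were 9 and 15 with regions joined within 50 bases, and 9 and 17 with only regions at least 75 bases wide. Ignoring strand, a reciprocal overlap of 50% and gene end windows of 2 and 10 kb changed no TET3 value. The strand setting could not, as no region lay on the other strand of a TET span. Nor could the gene end counts of 0 change under any setting, with the nearest TET3 region 27465 bases from that end. The 35 values that stayed include these. Counting regions within 50 bases as shared gave 9 and 10 shared regions in place of 9 and 9. The median WT gap rose from 475 to 799.5 bases both with joining and with the 75-base minimum, each of which takes away 1 WT region. A minimum of 100 bases, chosen after seeing the data, left 4 WT and 9 5xA regions in TET3, 3 of them shared in each list, and 3 of the 5 TET1 regions. Covered bases were then 485 and 1318 and median gaps 1124 and 489.5. Leaving out a replicate was not run because each list is already merged. No paired analysis was possible because the merged lists carry no replicate numbers. Depth is unknown, and it could not be said whether places found in 1 list only would be called at another depth.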
